A study of Mus musculus with 2 samples.

Results

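Haemoglobin barcodes are droplets whose RNA came mainly from the 4 adult globin genes, Hbb-bs, Hbb-bt, Hba-a1 and Hba-a2. They were chosen by their globin share in 2 single-nucleus RNA sequencing libraries of mouse cardiac tissue, with no lower limit on genes, wherever these 4 genes made up at least 30% of the unique molecular identifiers (UMIs) that were not mitochondrial. This gave 134 of 26334 barcodes, 116 of 15077 in the CF-KI library and 18 of 11257 in the control library. In CF-KI mice NLRP3, an inflammasome sensor, is constitutively active in fibroblasts. Their genotype was Tcf21-MerCreMer;Nlrp3-A350V/A350V, and that of the control was Tcf21-MerCreMer;Nlrp3-WT/WT. Both libraries came from male C57Bl6/J mice at 3.5 months of age, and both genotypes carried the tamoxifen-inducible Cre and received tamoxifen. The Cre is driven from Tcf21, a gene of fibroblasts, and the submitters state that the Nlrp3 allele was silent in cells without Cre. Tcf21 had 0 UMIs in the haemoglobin barcodes of both libraries, against 1.90 expected in CF-KI and 0.221 in the control from its level in the other barcodes. Each genotype was 1 library, and the number of animals in it is not given in the labels. No test between genotypes was therefore possible, and every interval below is an exact 95% interval that covers counting error only.

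Adult haemoglobin is a tetramer of alpha chains, here from Hba-a1 and Hba-a2, and beta chains, here from Hbb-bs and Hbb-bt, each holding a haem group. Red cell precursors make it in bone marrow and spleen, and they shut down most other genes, condense the nucleus and expel it before they leave as reticulocytes. A reticulocyte has no nucleus but still holds globin mRNA and a few other stable transcripts, which it loses as it turns into a red cell. Droplet libraries also carry free RNA from broken cells, and in cardiac tissue this includes cardiomyocyte transcripts and, where blood is present, globin transcripts. The RNA outside the globin genes was therefore compared with that of the other barcodes in the same library.

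The 4 globin genes set the group apart, and the windows before their start sites are shown because all 4 hold the same set of short motifs. The windows are the 250 bases before the start in RefSeq on GRCm38.p6, written 5′ to 3′ on the gene's strand, with capitals for the motifs searched on both strands. They cover chr7:103827929-103828178 on the minus strand for Hbb-bs, chr7:103813924-103814173 on the minus strand for Hbb-bt, chr11:32283422-32283671 on the plus strand for Hba-a1 and chrX:150547167-150547416 on the plus strand for Alas2, which encodes the enzyme that starts haem synthesis in red cell precursors.
Hbb-bs: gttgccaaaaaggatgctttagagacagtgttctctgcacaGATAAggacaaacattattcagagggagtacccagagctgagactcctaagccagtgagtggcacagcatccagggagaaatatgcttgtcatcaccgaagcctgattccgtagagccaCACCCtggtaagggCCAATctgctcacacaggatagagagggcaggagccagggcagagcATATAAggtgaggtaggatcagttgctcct
Hbb-bt: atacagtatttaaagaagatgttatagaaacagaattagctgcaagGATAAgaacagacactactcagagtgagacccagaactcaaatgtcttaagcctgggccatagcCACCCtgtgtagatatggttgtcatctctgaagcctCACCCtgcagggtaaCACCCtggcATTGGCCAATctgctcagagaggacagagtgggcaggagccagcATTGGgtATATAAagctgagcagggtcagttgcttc
Hba-a1: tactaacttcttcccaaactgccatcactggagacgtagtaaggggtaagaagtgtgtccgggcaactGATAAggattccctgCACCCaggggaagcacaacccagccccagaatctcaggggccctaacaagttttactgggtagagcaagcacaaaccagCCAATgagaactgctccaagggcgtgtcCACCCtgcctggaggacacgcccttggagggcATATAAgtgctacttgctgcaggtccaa
Alas2: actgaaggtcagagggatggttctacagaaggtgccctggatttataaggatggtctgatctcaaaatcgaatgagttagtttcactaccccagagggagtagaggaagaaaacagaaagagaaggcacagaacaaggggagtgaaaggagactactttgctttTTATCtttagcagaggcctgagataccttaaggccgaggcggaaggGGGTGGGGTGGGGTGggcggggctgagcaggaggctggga
The motifs were GATAA, the core read by GATA factors, and CACCC, read by factors of the KLF family. CCAAT is a common promoter motif, and the last motif, ATATAA, is a form of the TATA box. Each was also searched as its reverse complement, and 2 CCAAT matches on opposite strands touch in Hbb-bt. Of all 32851 RefSeq windows of this length, 22.6% held GATAA, 52.0% CACCC, 33.8% CCAAT and 9.10% ATATAA. Hbb-bs, Hbb-bt, Hba-a1 and Hba-a2 held all 4 motifs, with ATATAA starting 28 to 31 bases before the start and GATAA 182 to 209 bases before it. Alas2 held GATAA on the opposite strand 86 bases before its start and 3 neighbouring CACCC matches on that strand, with no CCAAT or ATATAA. These are matches of letters, not shown binding sites. The windows of Bpgm, Mkrn1, Gpx1, Tent5c and Ube2l6, whose transcripts are described below, held no GATAA.

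The CF-KI library held 21603653 UMIs and the control library 18040776. No barcode in either had fewer than 500. The 2 libraries shared 46 barcodes, 0.305% of CF-KI and 0.409% of control barcodes, and 1 of these was a haemoglobin barcode of the control. Mitochondrial UMIs made up a median of 14.2% of a barcode in CF-KI outside the group and 3.47% in the control. Scrublet, which scores barcodes for doublets, called 0 haemoglobin barcodes in either library, but in the control it called only 4 barcodes in all and so had not worked there.

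Haemoglobin barcodes were 0.769% of CF-KI barcodes (interval 0.636 to 0.922%) and 0.160% of control barcodes (0.0948 to 0.253%). The share was 4.81 times as high in CF-KI (2.91 to 8.40). With barcodes of over 5% mitochondrial UMIs left out, a limit that more CF-KI than control barcodes exceeded, the shares were 3.72% and 0.263%. The globin share used to choose the group had a median of 85.2% in CF-KI (33.5 to 94.3%) and 91.0% in the control (66.4 to 97.1%). Just inside the limit lay CF-KI barcodes at 33.5, 43.9 and 45.6%, and just outside lay barcodes at 28.2, 27.3 and 25.5%. In the control the nearest inside were 66.4, 66.7 and 74.6%, and the nearest outside 10.7, 6.51 and 6.51%. Between 5 and 10%, 10 and 20%, and 20 and 30% lay 5, 8 and 4 CF-KI barcodes and 3, 1 and 0 control barcodes, so the group stands clear of the rest in the control and less so in CF-KI.

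**Figure D1:**
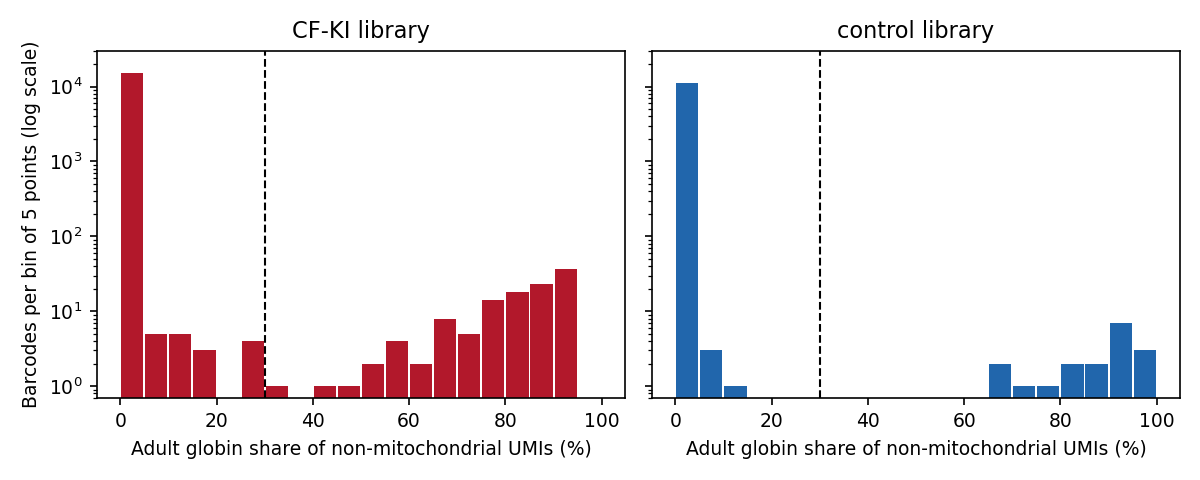
Number of barcodes (log scale) by the share of non-mitochondrial UMIs from the 4 adult globin genes, in bins of 5 percentage points, for the CF-KI library (left) and the control library (right). The dashed line is the 30% limit, with 116 CF-KI and 18 control barcodes to its right.

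The haemoglobin barcodes were deep in globin RNA and poor in everything else. They held a median of 2651.5 UMIs in CF-KI (512 to 7698) and 2116.5 in the control (531 to 6806), of which 2294 and 1833.5 were globin. What was left after globin and mitochondrial UMIs, called the remaining RNA from here on, had a median of 299 UMIs in CF-KI (175 to 3054) and 156.5 in the control (93 to 1187). Other barcodes held a median of 826 and 1061 such UMIs. A CF-KI haemoglobin barcode had 223.5 genes at the median and a control one 118.5, against 539 and 629 in the others. A limit of 200 genes would have kept 0.561% of CF-KI and 0.0357% of control barcodes in the group. Among UMIs other than globin, the mitochondrial share was 17.3% in CF-KI haemoglobin barcodes and 21.1% in the others, and 5.53% and 6.85% in the control.

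The beta chains came mostly from Hbb-bs and the alpha chains from both alpha genes. In CF-KI haemoglobin barcodes Hbb-bs held 51.2% of the globin UMIs, Hbb-bt 9.75%, Hba-a1 21.6% and Hba-a2 17.5%. In the control the same shares were 53.3, 6.94, 22.2 and 17.5%. These are shares of UMIs counted at transcript 3′ ends, without a correction for length. The alpha genes together held 39.1% of globin UMIs in CF-KI (38.9 to 39.3%) and 39.8% in the control (39.3 to 40.2%). Outside the group the alpha share was 34.2% in CF-KI (33.7 to 34.7%) and 39.7% in the control (38.7 to 40.8%). The stray globin of CF-KI was thus poorer in alpha than its haemoglobin barcodes, while in the control the intervals overlapped. The transcripts of Hba-a1 and Hba-a2 differed at 1 of 538 aligned bases in GENCODE vM21, so the split between them is uncertain. Those of Hbb-bs and Hbb-bt were 93.1% identical overall and 82.7% over their last 200 bases. The embryonic and minor globins Hbb-y, Hbb-bh1, Hbb-bh2 and Hba-x had 0 UMIs in the haemoglobin barcodes of both libraries.

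Most globin RNA of each library lay in these few barcodes, 89.7% in CF-KI and 81.7% in the control. Much of the rest was spread thinly, but not all. Of 34253 globin UMIs outside the group in CF-KI, 8123 lay in 255 barcodes with 1 to 30% globin. In the control, 43 such barcodes held 1747 of 9001. Globin made up 0.204% of non-mitochondrial UMIs outside the group in CF-KI (0.202 to 0.207%) and 0.0537% in the control (0.0526 to 0.0548%), a ratio of 3.81 (3.72 to 3.90). At least 1 globin UMI was present in 81.3% of the other CF-KI barcodes and 41.2% of the other control barcodes. The CF-KI library was therefore higher both in the share of haemoglobin barcodes and in stray globin, and with 1 library per genotype the genotype and the library cannot be told apart.

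Transcripts known from late red cell precursors and reticulocytes were the clearest part of the remaining RNA. For each gene, the level in counts per 1000000 UMIs (CPM) of remaining RNA was divided by that in the other barcodes of the library, and a gene was counted as higher or lower where its whole interval lay past 2-fold. Genes with at least 100 UMIs in the library were examined. This minimum includes the UMIs of the haemoglobin barcodes themselves, and some genes reached it only with them. In CF-KI, 124 of 11307 genes were higher (1.1%) and 28 were lower (0.248%). Of 20 late erythroid genes, 16 could be examined and 13 were higher. These genes held 4.72% of the remaining RNA in CF-KI haemoglobin barcodes and 0.115% in the others.

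Bpgm, whose enzyme makes the bisphosphoglycerate that lowers the oxygen affinity of haemoglobin, had 352 UMIs in the CF-KI haemoglobin barcodes where 0.469 were expected from the other barcodes, a ratio of 750 (620 to 910). Car2, a carbonic anhydrase, was 315 times higher (239 to 414), from 104 UMIs in 26 barcodes. Isg20, which encodes an exonuclease, was 311 times higher (234 to 412). Ube2l6, a ubiquitin-conjugating enzyme, was 216 times higher, Mkrn1, a ubiquitin ligase, 203 times, Tent5c, a poly(A) polymerase, 186 times and Gpx1, a glutathione peroxidase, 89.9 times. The lowest of the 13, Rnf10, was 9.33 times higher (7.11 to 12.0). The 3 examined genes that were not counted as higher, Fbxo7, Nprl3 and Xpo7, had 1, 1 and 2 UMIs, too few to place. Tspo2, a gene of red cell precursors, was too rare to be examined but had 16 UMIs in 12 haemoglobin barcodes and 0 in the other 14961.

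Genes of haem synthesis and iron handling were higher only in part. Of 14 genes examined in CF-KI, 5 were higher and none lower. Alas2 was found in 67.2% of haemoglobin barcodes and 0.307% of other barcodes, and at 5103 against 3.05 CPM it was 1674 times higher (1235 to 2308). It had 51 UMIs in the other barcodes and reached the minimum only with its 252 in the haemoglobin barcodes. Fech, which puts iron into the haem ring, was 17.2 times higher (12.7 to 22.8) and Slc25a37, the carrier that brings iron into mitochondria, 15.9 times (11.6 to 21.2). The ferritin genes Ftl1 and Fth1 were 13.9 and 3.87 times higher. The enzymes between Alas2 and Fech in the pathway were thinly counted, with 5 UMIs for Urod, 2 for Alad and for Cpox, and 0 for Uros and Ppox, and none of these was counted as higher.

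Genes of the red cell membrane and its skeleton gave fewer UMIs. Of 9 examined in CF-KI, 2 were higher and none lower, and Epb41, a skeleton protein, was 16.6 times higher (13.2 to 20.7). Slc4a1, the anion exchanger of the red cell, had 16 UMIs in 8 haemoglobin barcodes and 2 in all other barcodes. It fell under the 100 UMI minimum and, like Tspo2, was named after its values were seen.

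Regulators and early genes gave few UMIs. The 11 erythroid transcription factor genes had 25 UMIs in CF-KI, a summed ratio of 2.88 to the other barcodes (1.86 to 4.25). Of the 6 erythroid transcription factor genes examined in CF-KI, only Lmo2, an adaptor in the erythroid transcription complex, was higher, at 6.82 times (3.39 to 12.3) from 11 UMIs. Hemgn, a nuclear protein of blood cell precursors, had 3 UMIs in 3 haemoglobin barcodes and 0 in all others. Gata1, Klf1 and Gfi1b had 0 UMIs among 49384 of remaining RNA, where 3 UMIs would be 60.7 CPM. The 10 genes of progenitors and early erythroblasts had 16 UMIs, at the level of the other barcodes with a summed ratio of 0.940 (0.537 to 1.53). None of the 6 examined was higher. Cd34, a gene that endothelial cells also express, held 12 of these UMIs at a ratio of 0.969, and Kit, Myb and Epor had 0. The 12 cell division genes had 3 UMIs in all, 1 each from Hist1h2ae, Top2a and Pcna, a summed ratio of 0.672 (0.138 to 1.97). Gata1, the factor that defines the lineage, also had 0 UMIs in the other CF-KI barcodes, so its absence separates nothing here.

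Over the 3 lists of late erythroid, haem and membrane genes, 20 of 39 examined genes were higher in CF-KI and none lower, where 1.1% of all genes were higher. The median ratio over the 39 genes was 8.54 with counts under 3 set to 3 UMIs and 4.92 with counts left as they were. Over all genes examined the same medians were 2.30 and 0.646. Among barcodes of at most 5% mitochondrial UMIs the former was 16.03. The label of erythroid barcodes therefore rests mainly on late transcripts, with few UMIs from the factors of the lineage and progenitor genes at the level of the other barcodes. It does not rest on them evenly. A set of 44 of the 116 barcodes, described below, held 69 of the 2333 late erythroid UMIs. Their median was 1 per barcode, as in the barcodes outside the group.

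**Figure D2:**
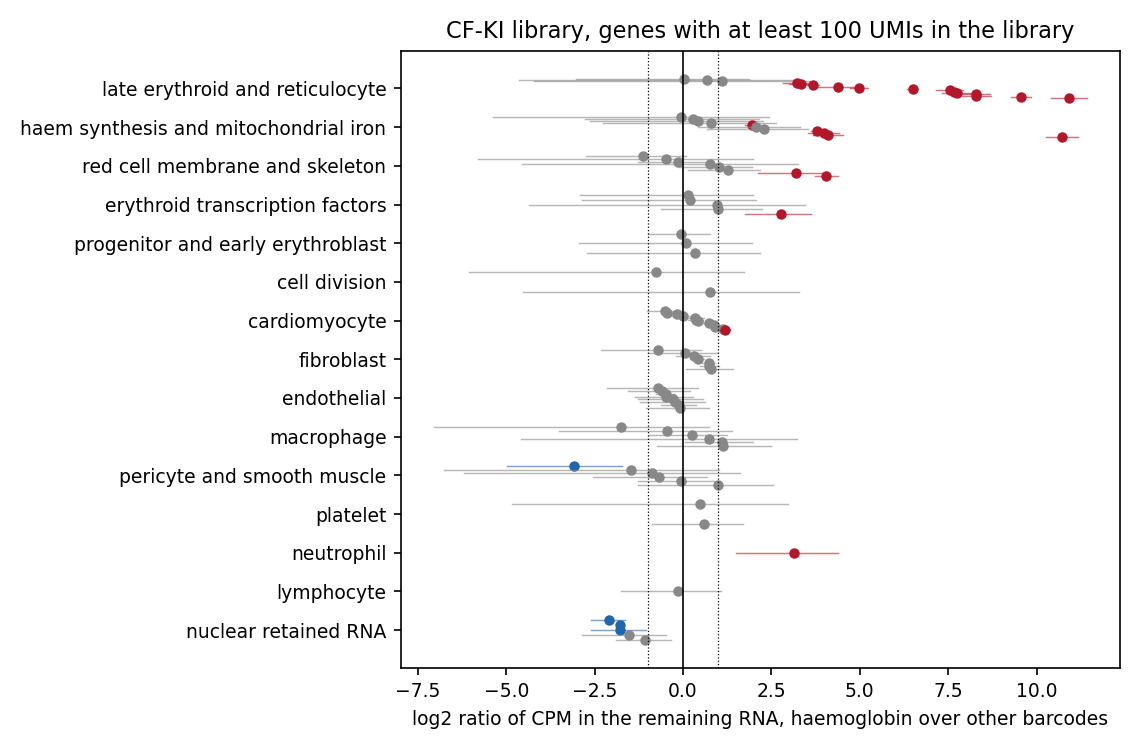
log2 ratio of CPM in the remaining RNA of haemoglobin barcodes over other barcodes of the CF-KI library, 1 point per gene with its 95% counting interval, by gene list. Only genes with at least 100 UMIs in the library and at least 1 in the haemoglobin barcodes are drawn, red where the interval lies above 2-fold (dotted line at 1), blue where it lies below the dotted line at -1 and grey otherwise. Late erythroid genes lie far to the right, with Bpgm at a ratio of 750, and cardiomyocyte genes lie near 0.

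Cardiomyocyte transcripts were present in the haemoglobin barcodes at nearly the level of the other barcodes. All 12 cardiomyocyte genes were found, and their ratios in CF-KI ran from 0.703 for Ryr2, the calcium release channel, to 2.26 for Myl2, a ventricular myosin light chain. Myl2 was the only 1 counted as higher (2.04 to 2.49), the median over the list was 1.32, and the list held 5.51% of the remaining RNA against 4.24% in the other barcodes. Mb, which encodes myoglobin, was at 2.21 and Ttn, which encodes the giant sarcomere protein titin, at 0.728. Among CF-KI barcodes of at least 50% mitochondrial UMIs, 1644 in number and none a haemoglobin barcode, the cardiomyocyte list held 14.5%.

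Fibroblast and endothelial genes gave ratios around 1, and pericyte and smooth muscle genes were below it in CF-KI. The 8 fibroblast genes in CF-KI had a median of 1.29, with Dcn, a matrix proteoglycan, at 1.66 (1.46 to 1.89), and the 8 endothelial genes a median of 0.773, with Cdh5, the cadherin of endothelial junctions, at 0.612. None of either list was counted as higher or lower. A single barcode held 53 of the 235 Dcn UMIs, and for Gsn a single barcode held 87 of 231. The 8 pericyte and smooth muscle genes had 21 UMIs in CF-KI, a summed ratio of 0.375 (0.232 to 0.573), and Rgs5 was lower at 0.117 (0.0319 to 0.300), with 4 UMIs where 34.1 were expected. In the control this list ran the other way, with 10 UMIs and a summed ratio of 2.94 (1.41 to 5.42). All 10 lay in the 5 control barcodes rich in Malat1 that are described below, with 0 in the other 13. A single barcode held all 3 UMIs of Rgs5 there. Macrophage genes had 26 UMIs in all and their 8 ratios were counted neither higher nor lower. The 24 genes of platelets, neutrophils and lymphocytes had 18 UMIs together in the 116 barcodes, of which S100a9 held 5, at 8.87 times the level of the other barcodes (2.85 to 21.1).

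Transcripts that stay in the nucleus were scarce. Malat1, a nuclear long non-coding RNA, had 3307 UMIs in CF-KI haemoglobin barcodes where 11427 were expected, a ratio of 0.289 (0.280 to 0.299). Neat1 was at 0.233 (0.163 to 0.323), and 3 of the 6 nuclear transcripts examined were lower, none higher. Per barcode, Malat1 had a median of 5.5 UMIs (0 to 550) against 140 in the other barcodes. In the control it had a median of 7.5 (1 to 347) against 245, and its summed ratio was 0.531 (0.497 to 0.567).

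The Malat1 of the group lay in a minority of barcodes. It made up at least 10% of the remaining RNA, a limit chosen after seeing the data, in 11 of 116 CF-KI barcodes, with a median of 141 Malat1 UMIs (70 to 550). The other 105 had a median of 5 (0 to 245) and 2.44% Malat1. In the control, 5 of 18 passed this limit with a median of 161 (14 to 347), and the other 13 had a median of 6 (1 to 20). The 11 CF-KI barcodes held 774 remaining UMIs at the median against 284 in the rest, and late erythroid UMIs stood at 9.70 and 7.53 per 1000 globin UMIs in these 2 sets. Without them, 164 genes were higher in place of 124.

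Across the CF-KI haemoglobin barcodes, late erythroid UMIs went with globin and cardiomyocyte UMIs did not. When the barcodes were ordered by globin UMIs and cut into 39, 39 and 38, the median of late erythroid UMIs was 1, 8 and 45.5, while that of cardiomyocyte UMIs was 21, 21 and 19.5. Per 1000 globin UMIs the late erythroid genes gave 1.98, 4.84 and 10.3. Median mitochondrial UMIs were 68, 72 and 84, and median Malat1 UMIs 4, 6 and 6.5. Spearman's correlation with globin UMIs over the 116 barcodes was 0.909 for late erythroid UMIs and -0.036 for cardiomyocyte UMIs, as a description of barcodes that share 1 library and differ in depth. The 18 control barcodes gave 0.596 and 0.362, with medians of 3.5, 5.5 and 14.5 late erythroid UMIs and 5.5, 8 and 8 cardiomyocyte UMIs in sets of 6. Per 1000 globin UMIs, however, the control sets gave 7.32, 3.45 and 3.80, highest in the set with the least globin. A single barcode held 19 of the 34 late erythroid UMIs of that set, so the contrast with CF-KI rests largely on it.

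**Figure D3:**
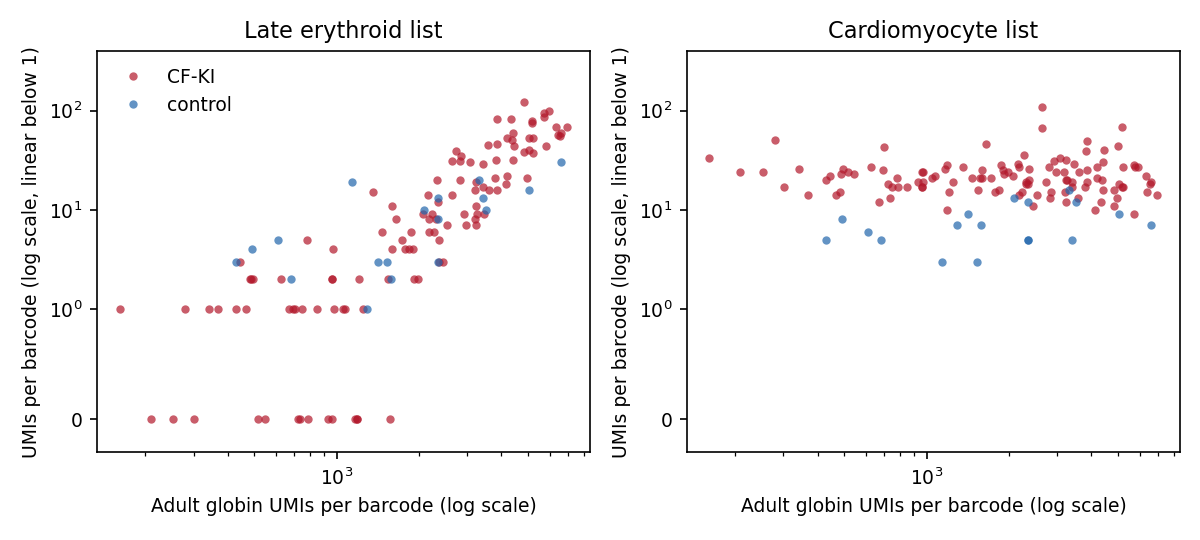
UMIs per haemoglobin barcode from the late erythroid list (left) and the cardiomyocyte list (right) against adult globin UMIs, both axes on log scales with the vertical axis linear below 1, 1 point per barcode (116 CF-KI in red, 18 control in blue). Late erythroid UMIs climb from a median of 1 to 45.5 between the lowest and highest CF-KI sets while cardiomyocyte UMIs stay near 21.

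The share of Hbb-bt among beta globin UMIs varied widely between haemoglobin barcodes. Over all of them Hbb-bt was 16.01% of beta in CF-KI (15.8 to 16.2%) and 11.5% in the control (11.1 to 11.9%). Per barcode the median was 14.2% in CF-KI (0 to 23.3%) and 6.82% in the control (0.531 to 19.7%). The spread between barcodes was 36.1 times the variance expected from counting in CF-KI and 64.8 times in the control, where that of Hba-a2 among alpha UMIs was 3.29 and 2.71 times. The alpha share of all globin UMIs also varied beyond counting, by 21.5 and 25.4 times. In bins of 2.5 percentage points, the CF-KI barcodes numbered 16 and 18 up to 5%, then 5 in each bin up to 12.5%, then 13, 18, 18 and 17 up to 22.5%, so 2 crowded ranges lay either side of a thin one. A line was drawn at 10% after seeing this, which left 44 CF-KI barcodes under it (37.9%, interval 29.1 to 47.4%) and 72 at or above it. In the control 10 of 18 lay under it (55.6%, 30.8 to 78.5%), and none lay between 7.5 and 10%.

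**Figure D4:**
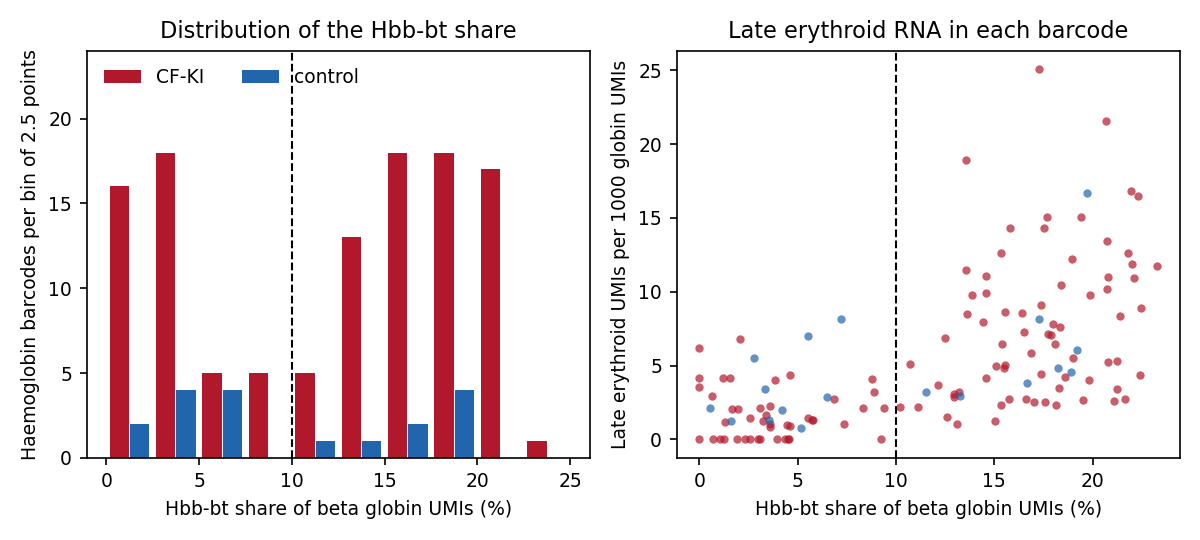
Left, number of haemoglobin barcodes by the share of Hbb-bt among beta globin UMIs, in bins of 2.5 percentage points for CF-KI (red) and control (blue). Right, late erythroid UMIs per 1000 globin UMIs against the same share, 1 point per barcode. The dashed line is at 10%, with 44 CF-KI and 10 control barcodes under it.

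Barcodes low in Hbb-bt had less globin and fewer late erythroid transcripts. In CF-KI their median globin was 890.5 UMIs (161 to 2368) against 3336.5 (430 to 6972), so the 2 sides overlapped. Late erythroid genes gave 69 UMIs on the low side, 1.64 per 1000 globin UMIs, and 2264 on the high side, 8.85 per 1000, a ratio of 5.40 (4.25 to 6.97). In the control the values were 2.89 and 5.03 per 1000, a ratio of 1.74 (1.24 to 2.48). Late erythroid UMIs were missing altogether from 14 of the 44 low CF-KI barcodes and from none of the 72 others.

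The genes were not equally far apart between the 2 sides. Per globin UMI in CF-KI, Gpx1 was 20.2 times higher on the high side (6.87 to 98.6), Bpgm 11.4 times (4.85 to 35.4), Mkrn1 7.06 times (3.54 to 16.5) and Alas2 1.72 times (1.11 to 2.80). The ferritin genes Fth1 at 0.734 (0.516 to 1.07) and Ftl1 at 1.31 (0.895 to 1.99) had intervals that held 1. In the control, Mkrn1 had 33 UMIs on the high side and 2 on the low side, while Ftl1 was lower on the high side at 0.348 (0.184 to 0.634).

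Median cardiomyocyte UMIs per barcode lay close together on both sides of the line. The median of cardiomyocyte UMIs in CF-KI was 21.5 on the low side and 20 on the high side, and in the control 7 and 6.5. Median Malat1 UMIs were 4 and 6 in CF-KI, and 7 and 8 in the control. Fibroblast genes gave 158 UMIs in the 44 low and 497 in the 72 high CF-KI barcodes. In the control they gave 98 in the 10 low and 19 in the 8 high barcodes. Per globin UMI the high side was at 0.518 (0.432 to 0.623) for fibroblast genes in CF-KI and 0.147 (0.0848 to 0.242) in the control. On that measure cardiomyocyte genes were at 0.301 (0.278 to 0.326) in CF-KI and 0.664 (0.467 to 0.942) in the control. Of the control fibroblast UMIs, 91 lay in the 5 barcodes with at least 10% Malat1 and 26 in the other 13. The alpha genes held 41.1% of globin UMIs on the low side in CF-KI (40.6 to 41.6%) and 38.8% on the high side (38.6 to 38.9%), and 42.7% and 37.5% in the control. Since the low side also had less globin and fewer UMIs per barcode, how far depth enters these differences was not tested.

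Compared per globin UMI, late erythroid transcripts were more abundant in the CF-KI than in the control haemoglobin barcodes. Per 1000 globin UMIs, the late list gave 7.83 in CF-KI barcodes and 4.11 in control barcodes, a ratio of 1.91 (1.63 to 2.25). With each barcode thinned to 500 UMIs the ratio was 1.39 (0.978 to 2.04), an interval that holds 1. The direction also depended on the side of the Hbb-bt line, since the ratio was 1.76 (1.46 to 2.14) on the high side and 0.567 (0.388 to 0.833) on the low side. The haem list was at 1.16 (0.939 to 1.44) and the membrane list at 3.54 (1.76 to 8.30), the latter from 8 control UMIs.

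Among 20 genes of these lists with at least 20 UMIs in the 2 libraries together, the interval lay above 1 for 9, below 1 for 1 and across 1 for 10. The same count was not made over all genes, so it is not shown to be particular to erythroid genes. The late list had a log2 ratio of 0.93 per globin UMI. On another measure, shares of the remaining RNA, 117 genes of any kind had a median log2 ratio of 0.92, as given below. Gpx1 was 6.27 times higher in CF-KI (3.15 to 14.6), Bpgm 3.65 times (2.11 to 6.92) and Alas2 1.79 times (1.12 to 3.02). For Car2 the CF-KI barcodes held 104 UMIs against 0. With the 0 set to 3 UMIs the ratio was 4.67, and the exact interval began at 3.73. Ftl1 was lower in CF-KI, at 0.671 (0.4997 to 0.917). Ubb, a ubiquitin gene, at 1.06 (0.768 to 1.49) and Bnip3l, a receptor for the removal of mitochondria, at 1.04 (0.635 to 1.81) had intervals across 1 and were named after their values were seen. Cardiomyocyte UMIs, at 2.68 per globin UMI (2.26 to 3.203), were further apart than the late list, and fibroblast UMIs were lower at 0.755 (0.619 to 0.927). The part of this cardiac RNA in the differences was not tested.

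**Figure D5:**
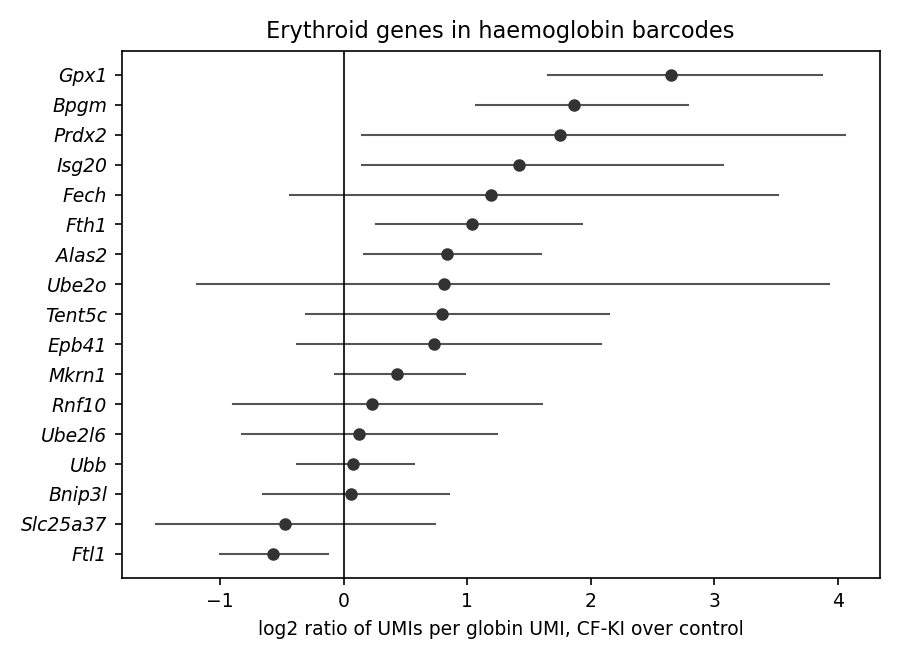
log2 ratio of UMIs per globin UMI in CF-KI over control haemoglobin barcodes for erythroid genes that reached 20 UMIs over both libraries, with 95% counting intervals. Points run from Ftl1 at -0.57 to Gpx1 at 2.65, and Car2, with 0 control UMIs, and 2 other genes are not drawn.

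As shares of the remaining RNA, 117 genes with at least 50 UMIs in the haemoglobin barcodes of both libraries together could be compared. In CF-KI, 5 were higher (4.27%) and 1 lower (0.855%). The median log2 ratio over these genes was 0.92 with counts under 3 set to 3 UMIs, so single ratios are read against that shift. Malat1 alone took up 16.1% of the control's remaining RNA and 6.70% of that of CF-KI. The highest were Mb at 6.72 (2.59 to 24.9), Gpx1 at 5.16 (2.59 to 12.0) and Sec61g at 4.73 (1.995 to 14.7). They also included Cox6c, a subunit of cytochrome oxidase, from 117 UMIs against 2 at 6.50 (1.76 to 54.3). With its 2 control UMIs set to 3, Cox6c ranked at 4.33. Car2 was the last of them, at 3.85 with its 0 control UMIs set to 3, and its exact interval began at 3.08. The intervals of Sec61g and Cox6c reached below 2-fold. The lowest were Sh3glb1 at 0.350 (0.184 to 0.712), Malat1 at 0.415 (0.385 to 0.447), Zbtb20 at 0.470 (0.253 to 0.937), Gsn at 0.534 (0.390 to 0.745) and Ftl1 at 0.553 (0.412 to 0.755), of which only Malat1 lay wholly past 2-fold.

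The control group was too small for most genes, with 5483 remaining UMIs in 18 barcodes, of which 3 barcodes held 3071. In the control, 85 of 11495 genes were higher (0.739%) and 2 lower (0.0174%). Of 36 examined late erythroid, haem and membrane genes 13 were higher, among them Bpgm at 361 (186 to 643), Mkrn1 at 224 (154 to 316) and Ftl1 at 35.3 (26.5 to 46.1). Alas2, with 19 UMIs in the haemoglobin barcodes and 25 in all others, missed the 100 UMI minimum. The median over the 36 genes was 22.2 with counts under 3 set to 3 UMIs. All genes gave 20.1 in the same way, so this median carries no information in the control. The cardiomyocyte list had a median of 1.19, with Actc1, cardiac actin, at 4.31 (2.23 to 7.54) and Ryr2 at 0.153. Genes of airway epithelium had 15 UMIs there, 10 of them from Scgb1a1 where 4.84 were expected, and 0 in the CF-KI group.

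Outside the lists, the 10 highest genes of CF-KI added Cd24a, a surface glycoprotein of red cell precursors and B cells, at 332 and Prxl2a, a peroxiredoxin-like protein, at 100.12. Cd24a reached the 100 UMI minimum only with its 52 UMIs in the haemoglobin barcodes, beside 53 in the others. The 10 lowest were led by Mhrt, a long non-coding RNA from the Myh7 locus, with 4 UMIs where 77.4 were expected, a ratio of 0.0517. Gm47644 had 3 where 44.7 were expected, Pde4d, a phosphodiesterase, 2 where 27.1 were expected, and Lmo7 3 where 26.8 were expected. Igkc, the immunoglobulin kappa constant gene, had 0 where 25.9 were expected, a ratio of 0 (0 to 0.142). D830005E20Rik, Hand2os1 and Atcayos had 1 to 3 UMIs each where 19.8 to 23.1 were expected. At the depth of these barcodes a lower level was harder to see than a higher one. In simulated CF-KI data all 100 genes raised 8-fold were recovered, and 27 of 100 genes lowered 8-fold. The altered genes were drawn from those with at least 3 expected UMIs in the haemoglobin barcodes, 2872 of the 11307 examined. Recovery of the more thinly counted genes was not tested.

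Alas2 against globin gave a further difference between the haemoglobin barcodes and the stray globin. Per 1000 globin UMIs there were 0.846 Alas2 UMIs in the CF-KI haemoglobin barcodes and 1.49 in the other barcodes, and 0.473 and 2.78 in the control. These rest on 252 and 51 Alas2 UMIs in CF-KI and on 19 and 25 in the control, and are given without intervals. In the control, 3 haemoglobin barcodes with 500 or more remaining UMIs held 10 of the 19, at 1.48 per 1000. The other 15 were at 0.270, while the same 2 sets in CF-KI were at 0.854 and 0.843. In CF-KI the 97 haemoglobin barcodes with under 500 remaining UMIs had 1.69% Malat1 and 6.95% cardiomyocyte UMIs in that RNA. The 19 with 500 or more had 13.9% and 3.44%. The 14961 other barcodes had 23.1% Malat1 and 4.24% cardiomyocyte UMIs, and the barcodes of at least 50% mitochondrial UMIs 4.27% and 14.5%. The thinner haemoglobin barcodes were thus the poorest of these sets in Malat1.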

How the data were processed

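Single nuclei of 2 libraries, 1 per genotype, were analysed. The deposited values are whole UMI counts of each gene in each barcode, made with Cell Ranger 6.1.1 on mm10, per the submitters' processing notes, and the 10x Genomics 3′ kit is given per the labels. Cell calling settings are not given in the sources used here. Groups follow the titles. Python 3.11.15, numpy 2.4.6, scipy 1.17.1 and scanpy 1.11.5 (for Scrublet) were used. Haemoglobin barcodes were those with at least 30% adult globin among non-mitochondrial UMIs, with no other filter and doublets kept. Ratios of CPM are conditional binomial with exact (Clopper-Pearson) 95% intervals, for genes with at least 100 UMIs in a library, and are called past 2-fold. Counts of 0, or all counts under 3, were set to 3 where stated. UMIs within a library are not independent samples, and no p-value is given. The calculation was tested on simulated data. Genes named are up to 4 highest and lowest of each list, the 10 highest and 10 lowest past 2-fold in CF-KI, and the 5 highest and 5 lowest between libraries with at least 50 UMIs. Other list members were named after their values were seen, and some genes that the rule names are not reported here. The members and lists were chosen with earlier results of these data known. Alternatives are given at the end.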

Additional observations from a re-analysis of the deposited data

How the results depend on the processing

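Over 17 values and 161 combinations with other settings, 128 stayed within the interval of the main setting (for counts of genes, within 1.5 times), 32 moved and 1 reversed. For medians this was an interval from the spread over genes or barcodes, not a counting interval, and for medians over genes it was wide. By this rule the erythroid median of 16.03 and the cardiomyocyte medians of 1.87, 2.08 and 2.33 listed here did not count as moved. The settings that leave out barcodes with much Malat1, that count zeros at 0, and all settings of the late erythroid ratio and the Hbb-bt split were chosen after seeing the data. With at least 200 genes, the group was 0.561% of CF-KI and 0.0357% of control barcodes, remaining UMIs were 358 and 942, the alpha share 38.7% in both, and the cardiomyocyte median in the control 0.496. With at most 5% mitochondrial UMIs, the group was 3.72% and 0.263%, 268 genes were higher in CF-KI and the erythroid median there was 16.03, the alpha share was 38.8% in CF-KI, and stray globin 0.132% and 0.0429%. With at most 20%, the group was 1.099% of CF-KI and stray globin 0.189% and 0.0506%. With each barcode thinned to 500 UMIs, remaining UMIs were 68.5 and 44, 56 and 33 genes were higher, the alpha share was 40.9% and 41.3%, stray globin 0.233% and 0.0651%, the cardiomyocyte medians 1.87 and 2.08, the erythroid median in the control 50.05 and the late erythroid ratio between libraries 1.39. Stray globin in CF-KI was 0.192% at a 20% limit on membership, 0.208% at 50% and 0.177% without Scrublet calls. The erythroid median in the control was 0 with zeros counted at 0 and 54.5 without the 5 barcodes rich in Malat1, where the cardiomyocyte median was 2.33. The Hbb-bt split in CF-KI was 27.4% with at least 200 genes and 27.1% with at most 5% mitochondrial UMIs. The cause of these changes was not tested, beyond fewer barcodes or UMIs entering. No paired analysis was possible because each genotype had 1 library. The control had 5483 remaining UMIs, so most of its single genes could not be placed.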
